A study of Mus musculus with 26 samples.

Results

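Tumours labelled Notch1-/-Notch2-/- were set against control tumours wild type for these genes, by RNA sequencing of sorted glioma cells. The libraries were taken by their genotype labels, 5 of Notch1-/-Notch2-/- and 6 of control, which makes 11 of the 26 libraries of the series. The Notch1-/-Notch2-/- group, called the double-loss group from here on, was labelled knockout for Notch1, Notch2 and Trp53 and wild type for Rbpj. The control group was labelled knockout for Trp53 and wild type for Notch1, Notch2 and Rbpj. The remaining 15 libraries were Notch1-/- (n = 6), Notch2-/- (n = 5) and Rbpj-/- (n = 4) tumours, all Trp53 knockout as well, and were used in the shared fit and to show where the double loss differed from them. All tumours were mouse gliomas driven by PDGF, a growth factor for oligodendrocyte precursors, in the absence of Trp53, the gene of the tumour suppressor p53. Early gliomas were dissected and GFP-positive cells were sorted, GFP coming from a reporter at the Rosa locus that Cre recombinase switches on. The labels name neither the promoter that drove Cre nor the strain, age or sex of the mice. Whether each replicate was another mouse is not stated, and the p-values reflect the variation among these libraries, part of which may be technical.

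Total counts were 35046873 to 44376594 per double-loss library and 37613009 to 46703709 per control library. Levels are given in CPM, counts scaled to a common library total, and means with their SD. CPM depend on gene length, so they compare samples for 1 gene and not genes with each other. Fold changes are log2 of double loss over control with their standard error, from edgeR's quasi-likelihood test across 15617 genes with Benjamini-Hochberg adjustment, and a gene is said to have risen or fallen where the adjusted p was under 0.05.

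Notch receptors sit in the cell membrane and are cut when a ligand on a neighbouring cell binds them. The released intracellular part enters the nucleus, joins the DNA-binding protein RBPJ and a Mastermind coactivator, and switches on genes such as the Hes and Hey repressors. In the developing brain the pathway is known for holding progenitors undifferentiated and for favouring glial over neuronal fates.

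Counts over the whole Notch1 and Notch2 genes did not separate the double-loss group from controls. Notch1 held 111, 139, 124, 239 and 82.7 CPM in double-loss libraries 1 to 5, against a lowest, median and highest value of 71.2, 97.4 and 148 CPM in controls (log2 fold change 0.36 ± 0.25, edgeR adjusted p = 0.27). Notch2 held 11.2 ± 1.32 CPM in double-loss tumours (n = 5) and 12.7 ± 2.73 CPM in controls (n = 6), a log2 fold change of -0.18 ± 0.15 (edgeR adjusted p = 0.377). In Notch2-/- tumours, by contrast, Notch2 was lower, at 6.14 to 8.58 CPM (log2 fold change over control -0.79 ± 0.15, edgeR adjusted p = 0.0200). All 5 double-loss libraries, at 9.43 to 12.9 CPM, lay above every Notch2-/- library (log2 fold change 0.61 ± 0.16, edgeR adjusted p = 0.0115). The Notch2 counts of the double-loss libraries thus go against their label, by the drop seen in Notch2-/- libraries. Notch1 was not lower in Notch1-/- tumours either, at 144 ± 45.4 CPM, so its counts check no label. Which exons were removed is not given in the sources used here. The name double loss stands for the libraries labelled Notch1-/-Notch2-/- throughout, and every direction given for them rests on that label. Xist, expressed in female cells, and the Y-linked Ddx3y differed among libraries. Double-loss libraries 1 and 2 held 3428 and 3463 CPM of Xist and no count of Ddx3y, as control library 1 did with 1624 CPM of Xist. Control library 6 held both, at 412 CPM of Xist and 64.0 CPM of Ddx3y, as did Notch2-/- libraries 3 and 4. Olig2, Sox10 and Pdgfra, which define oligodendrocyte precursors, were found in every library and passed the test in neither direction.

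Of the 15617 genes tested, 5794 differed between the groups, or 37.1%, with 2855 higher in double-loss tumours (18.3%) and 2939 lower (18.8%). All 5 double-loss libraries lay above all 6 controls for 11.6% of genes and below them for 11.1%. The median log2 fold change over all genes was 0.006. Of the 5794 calls, 3977 (68.6%) remained without each of the 11 libraries in turn. Control library 4 stood apart from the other controls, with the lowest sums of endothelial and mature oligodendrocyte genes, and 6256 genes differed without it. The count of calls was 5061 without the 3 libraries that held both Xist and Ddx3y. Transcripts of cells outside the glioma lineage moved with the genotype. The mean log2 CPM of 25 microglia and macrophage genes ran from 0.191 to 2.198 in double-loss libraries and from 3.299 to 5.178 in controls, with no overlap. With that mean as a covariate 232 of the 5794 calls remained, 90 higher and 142 lower. Because the score did not overlap between the groups, this covariate cannot separate the amount of such cells from the genotype. That holds for the calls that remained as well as for those that were lost. Fewer cells of a type and less RNA per cell cannot be told apart in these libraries either.

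Several genes known to be switched on by Notch fell. Of 11 target genes listed, 9 were tested, 5 fell and 0 rose, against 18.8% and 18.3% of all genes, and each of the 5 lay below every control in every double-loss library. They fell without each library left out in turn, where 5 or 6 members fell. The members of this list were chosen with earlier results of these data known, so the shares are set side by side only. Hes5 encodes a repressor of neuronal differentiation and is the usual readout of the pathway. The gene (chr4:154960626-154962372, GRCm38.p6) held 0.568, 0.530, 1.19, 0.519 and 0.333 CPM in double-loss libraries, against 2.27, 3.43 and 7.97 CPM as the lowest, median and highest control. The highest double-loss library, the third, thus stayed below the lowest control (log2 fold change -2.69 ± 0.41, edgeR adjusted p = 6.91e-05). Hes1, a repressor of the same family (chr16:30065357-30067796), held 3.07, 3.26, 2.96, 1.39 and 2.87 CPM in double-loss libraries and 11.9, 13.8 and 21.3 CPM as the lowest, median and highest control (log2 fold change -2.44 ± 0.42, edgeR adjusted p = 1.69e-04). Nrarp, a feedback inhibitor that binds the nuclear Notch complex (chr2:25180758-25183339), held 7.55, 4.16, 7.35, 3.74 and 5.23 CPM in double-loss libraries and 16.4, 21.7 and 35.2 CPM as the lowest, median and highest control (log2 fold change -2.04 ± 0.33, edgeR adjusted p = 9.70e-05). In all 3 genes double-loss library 4 or 5 was the lowest and no value reached the control range.

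Tmem100, which encodes a small membrane protein, held 61.9, 40.1, 76.5, 22.3 and 53.5 CPM in double-loss libraries, against 171, 254 and 298 CPM as the lowest, median and highest control (log2 fold change -2.29 ± 0.30, edgeR adjusted p = 1.55e-05). Hey1, a repressor related to Hes1, fell less, to 14.7 ± 3.17 CPM in double-loss tumours, against 32.6 ± 7.17 CPM in controls (log2 fold change -1.15 ± 0.20, edgeR adjusted p = 1.80e-04). Hey2 did not pass the test, with 25.9 ± 1.85 CPM in double-loss tumours and 24.3 ± 3.94 CPM in controls (log2 fold change 0.09 ± 0.25, edgeR adjusted p = 0.812). Heyl, Dtx1 and Gucy1b2 did not pass either. With the microglia score as a covariate Hes5, Hes1, Nrarp and Tmem100 kept their call and Hey1 did not (edgeR adjusted p = 0.199).

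Promoter sequence from RefSeq (GRCm38.p6) was at hand for 7 of the 11 target genes, among them Hes5 and Nrarp, which fell, and Hey2, which did not pass the test. The 250 bases before the start that the promoter table gives are printed here on the strand of the gene, to show how a known Notch readout compares with these others. Capitals mark TGGGAA, the core of the sequence that RBPJ binds, searched on both strands; on the opposite strand it reads TTCCCA. The Hes5 promoter (chr4:154960673-154960922, plus strand) holds the motif 2 times, first bases 226 and 82 bases before the start, in opposite directions. That start lies inside the Hes5 interval given above, and the distances count from it. The Nrarp promoter (chr2:25180508-25180757, plus strand) holds none in these letters, and the Hey2 promoter (chr10:30842784-30843033, minus strand) holds 1, 207 bases before the start.
Hes5: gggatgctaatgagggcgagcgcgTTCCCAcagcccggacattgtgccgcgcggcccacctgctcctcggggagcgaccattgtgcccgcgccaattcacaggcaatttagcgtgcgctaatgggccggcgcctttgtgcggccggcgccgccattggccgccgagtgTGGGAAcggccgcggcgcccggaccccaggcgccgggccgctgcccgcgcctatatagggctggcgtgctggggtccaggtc
Nrarp: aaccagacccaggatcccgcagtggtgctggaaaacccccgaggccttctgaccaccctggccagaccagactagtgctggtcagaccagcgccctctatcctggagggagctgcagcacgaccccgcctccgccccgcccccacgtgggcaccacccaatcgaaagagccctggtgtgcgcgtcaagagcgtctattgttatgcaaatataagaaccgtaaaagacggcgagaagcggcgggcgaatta
Hey2: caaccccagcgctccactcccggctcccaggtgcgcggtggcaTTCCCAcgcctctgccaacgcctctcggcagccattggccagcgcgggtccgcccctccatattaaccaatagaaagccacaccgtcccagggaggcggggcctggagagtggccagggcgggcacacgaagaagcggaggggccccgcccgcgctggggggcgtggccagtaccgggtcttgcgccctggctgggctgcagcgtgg
The motif stands in 21.6% of all 32851 promoters of that length, in 24.2% of the genes that fell with a promoter in the table, in 22.1% of those that rose and in 24.0% of all genes tested. A match describes these letters and does not show binding.

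Among the ligands, 2 of 8 rose and 2 fell (25% each way, against 18.3% and 18.8% of all genes). Dll3 encodes a ligand that acts inside the cell that makes it and is known to dampen Notch there, and proneural cells express it. Dll3 held 75.9, 104, 73.6, 95.1 and 82.9 CPM in double-loss libraries, against 34.3, 40.0 and 42.9 CPM as the lowest, median and highest control (log2 fold change 1.15 ± 0.15, edgeR adjusted p = 1.57e-05). Every double-loss library lay above every control. Dlk1, an imprinted relative of the ligands, held 22.1, 52.2, 7.51, 24.3 and 16.9 CPM in double-loss libraries and 0.569, 1.09 and 6.01 CPM as the lowest, median and highest control (log2 fold change 3.66 ± 0.84, edgeR adjusted p = 0.00193). The fall of Dner, a neuronal ligand (edgeR adjusted p = 0.0288), was lost without double-loss library 2 or 4 or control library 1 or 2, with adjusted p of 0.0507 to 0.0892. The fall of Dll4, an endothelial ligand (edgeR adjusted p = 0.0352), was lost in 8 of the 11 fits that left out a library, all but those without double-loss library 4 or control library 4 or 6, with adjusted p up to 0.0954. Jag1 and Dll1, the ligands used most in the developing brain, did not pass, with log2 fold changes of 0.62 ± 0.29 and 0.25 ± 0.15 (edgeR adjusted p = 0.0921 and 0.183). Of 28 genes for processing and trafficking, 2 rose and 3 fell (7.14% and 10.7%, against 18.3% and 18.8% of all genes). Without double-loss library 1 or 3, 5 fell. The rise of Numbl, which encodes a relative of the Notch inhibitor Numb (edgeR adjusted p = 0.0469), was lost in 8 of the 11 fits, all but those without double-loss library 5 or control library 3 or 5. Neurl1b, an E3 ligase that acts on ligands, rose to 14.9 ± 2.10 CPM in double-loss tumours, against 7.61 ± 1.76 CPM in controls, with no overlap. Lfng, which adds sugars to the receptors, fell to 1.40 ± 0.852 CPM in double-loss tumours, against 5.13 ± 2.23 CPM in controls (edgeR adjusted p = 0.00495). Of 15 genes of the nuclear complex 4 rose (26.7%, against 18.3% of all genes), or 9 without control library 4. The lowest share in a fit that left out a library was 20%. Among those that rose was the Mastermind coactivator Maml2, at 116 ± 14.5 CPM in double-loss tumours and 71.7 ± 17.9 CPM in controls.

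**Figure D1:**
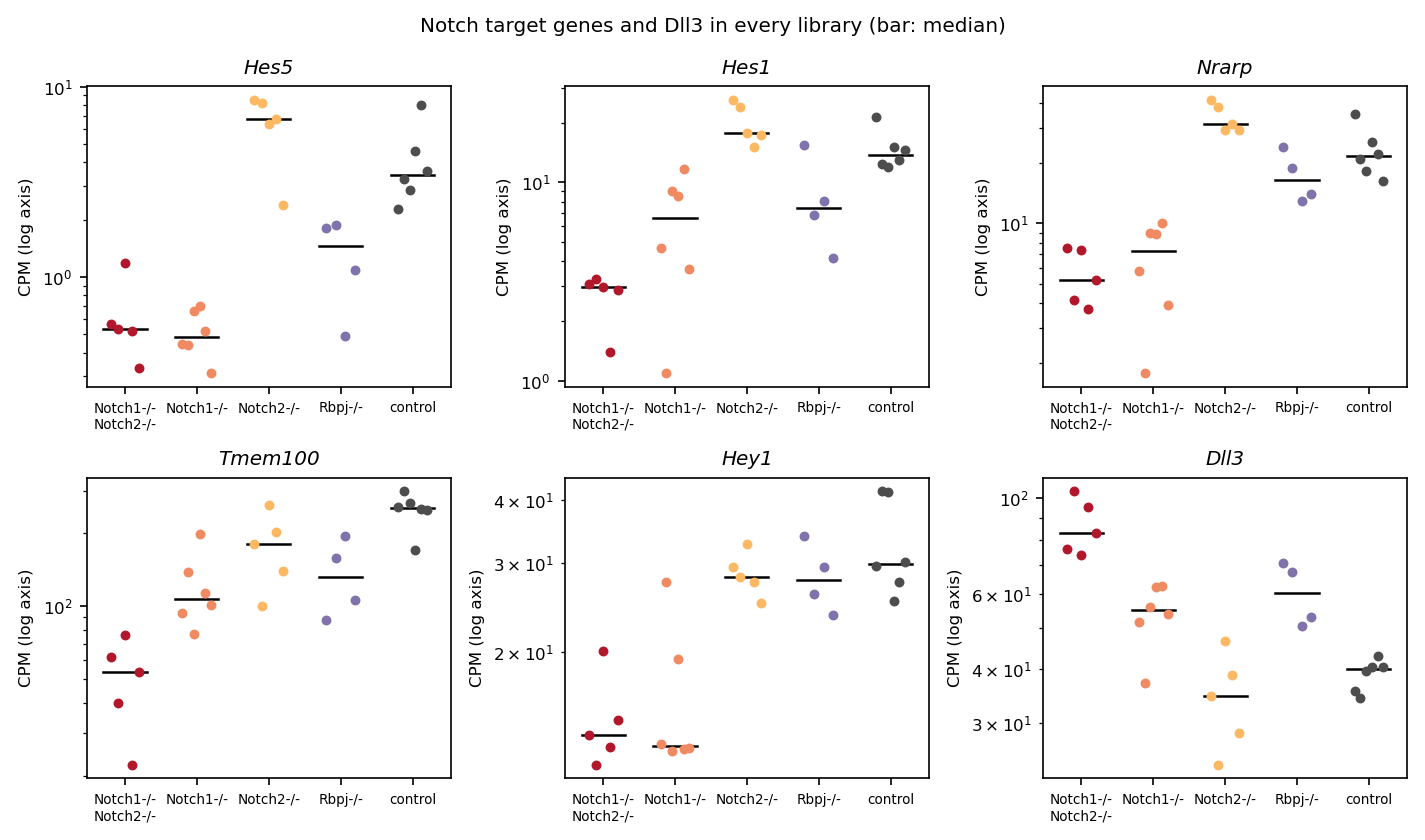
CPM (log axis) of 5 Notch target genes and the ligand gene Dll3 in each of 26 libraries, 1 point per library, with the genotypes side by side from double loss to control; the bar is the median. The double-loss points of Hes5, Hes1, Nrarp, Tmem100 and Hey1 lie below every control point, and those of Dll3 lie above.

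Among genes of mean log2 CPM of at least 1 whose groups did not overlap, the largest rise was that of H19, an imprinted RNA that is abundant in the embryo and silent in most adult tissues (chr7:142575530-142578146). It held 97.4, 362, 32.2, 331 and 178 CPM in double-loss libraries, against 0.843, 3.39 and 9.11 CPM as the lowest, median and highest control (log2 fold change 5.44 ± 0.98, edgeR adjusted p = 2.65e-04). Each group spanned a wide range. H19 is also the precursor of a microRNA, and the counts listed under Mir675 within it were 1.18, 3.52, 0.583, 4.42 and 1.87 CPM in double-loss libraries, with at most 0.137 CPM in controls. Mir17hg, the host RNA of the miR-17 to miR-92a cluster that the factor Myc is known to switch on, held 17.7, 20.9, 22.6, 51.8 and 37.8 CPM in double-loss libraries, against 2.13, 3.85 and 5.78 CPM as the lowest, median and highest control (log2 fold change 2.91 ± 0.35, edgeR adjusted p = 7.20e-06). The interval the gene table gives it (chr14:115044390-115046728) covers only the end of the cluster that holds miR-92a. The mature microRNAs of H19, and 1 arm of each microRNA of the cluster, are printed with their seed, bases 2 to 8, in capitals, to show which seeds are shared. In the cluster miR-17-5p and miR-20a-5p share a seed, as do miR-19a-3p and miR-19b-3p. Mature microRNAs were not measured in these libraries.
miR-675-5p: uGGUGCGGaaagggcccacagu
miR-675-3p: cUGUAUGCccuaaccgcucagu
miR-17-5p: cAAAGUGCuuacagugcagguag
miR-20a-5p: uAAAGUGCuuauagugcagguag
miR-18a-5p: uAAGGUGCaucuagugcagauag
miR-19a-3p: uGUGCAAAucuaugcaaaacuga
miR-19b-3p: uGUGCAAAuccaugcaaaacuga
miR-92a-3p: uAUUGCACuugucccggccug

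Several imprinted and growth genes of the embryo rose beside H19. Of 28 tested 9 rose (32.1%, against 18.3% of all genes) and 3 fell, with 7 to 11 rising when a library was left out and 5 falling without control library 4. Cdkn1c, which encodes the cell cycle inhibitor p57 and lies in the same imprinted region as H19, held 13.0, 24.9, 4.48, 18.5 and 16.1 CPM in double-loss libraries, against 1.92, 3.33 and 10.2 CPM as the lowest, median and highest control (log2 fold change 1.80 ± 0.52, edgeR adjusted p = 0.00914). Here the groups overlapped, since double-loss library 3 was below the highest control. Igf2r, which removes the growth factor IGF2, rose to 72.8 ± 9.84 CPM in double-loss tumours, against 41.3 ± 8.46 CPM in controls (log2 fold change 0.82 ± 0.15, edgeR adjusted p = 2.74e-04). H19, Mir675 and Cdkn1c kept their call with the microglia score as covariate.

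Other large rises joined genes of unlike function. Hfm1, a helicase known from meiosis, held 16.3, 8.77, 18.0, 7.29 and 14.3 CPM in double-loss libraries and 0.484, 0.641 and 1.17 CPM as the lowest, median and highest control (log2 fold change 4.14 ± 0.48, edgeR adjusted p = 4.71e-06). Plppr3, a membrane protein of growing axons, held 9.00, 14.0, 9.84, 22.0 and 10.0 CPM in double-loss libraries and 0.700, 1.47 and 2.16 CPM as the lowest, median and highest control (log2 fold change 3.18 ± 0.36, edgeR adjusted p = 3.97e-06). Both kept their call with the microglia score as a covariate. Serpina3n, a protease inhibitor of reactive glia, reached 498 ± 181 CPM in double-loss tumours, against 37.2 ± 25.8 CPM in controls (log2 fold change 3.74 ± 0.73, edgeR adjusted p = 5.22e-04). Greb1, known as an oestrogen-induced gene, rose to 9.29 ± 1.79 CPM in double-loss tumours, against 1.15 ± 0.525 CPM in controls (log2 fold change 3.00 ± 0.44, edgeR adjusted p = 4.16e-05). Tnc, which encodes the matrix protein tenascin C, rose as well (log2 fold change 2.98 ± 1.01, edgeR adjusted p = 0.0238), but its call was lost without double-loss library 2, control library 2 or control library 3 (adjusted p = 0.0879, 0.0511 and 0.0503).

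The double-loss libraries did not carry these rises equally. Libraries 2 and 4 held the highest values of 10 of the 15 largest rises, and for 8 of these, H19, Glis3, Aldh1a3, Lgals1, Plppr3, Tcim, Syt4 and Mid2, libraries 1 and 3 held the lowest. Hfm1 ran the other way, with libraries 1 and 3 highest and 2 and 4 lowest, and Fosb was highest in library 1. Cd44, Epha2 and Tnfrsf10b, set beside them after their values were seen, were also highest in libraries 2 and 4. Glis3, a zinc finger factor, held 2.84, 34.6, 2.19, 24.3 and 6.84 CPM in libraries 1 to 5, against 0.780 to 1.46 CPM in controls. Lgals1, which encodes the sugar-binding protein galectin 1, held 52.0, 293, 37.7, 211 and 72.9 CPM, against 6.63 to 29.0 CPM in controls. Aldh1a3, which makes retinoic acid, held 5.59, 30.1, 3.24, 32.8 and 16.6 CPM, against 0.652 to 2.74 CPM in controls. The lowest double-loss library stood above the highest control for these 3 genes, which was a condition for a place among the 15 largest rises. For Cd44, a hyaluronan receptor, libraries 2 and 4 held 127 and 50.0 CPM, while library 3 held 6.18 CPM, within the control range of 3.12 to 7.29 CPM. Library 2 was female and library 4 male by Xist and Ddx3y, and the part of sex in this order was not tested.

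**Figure D2:**
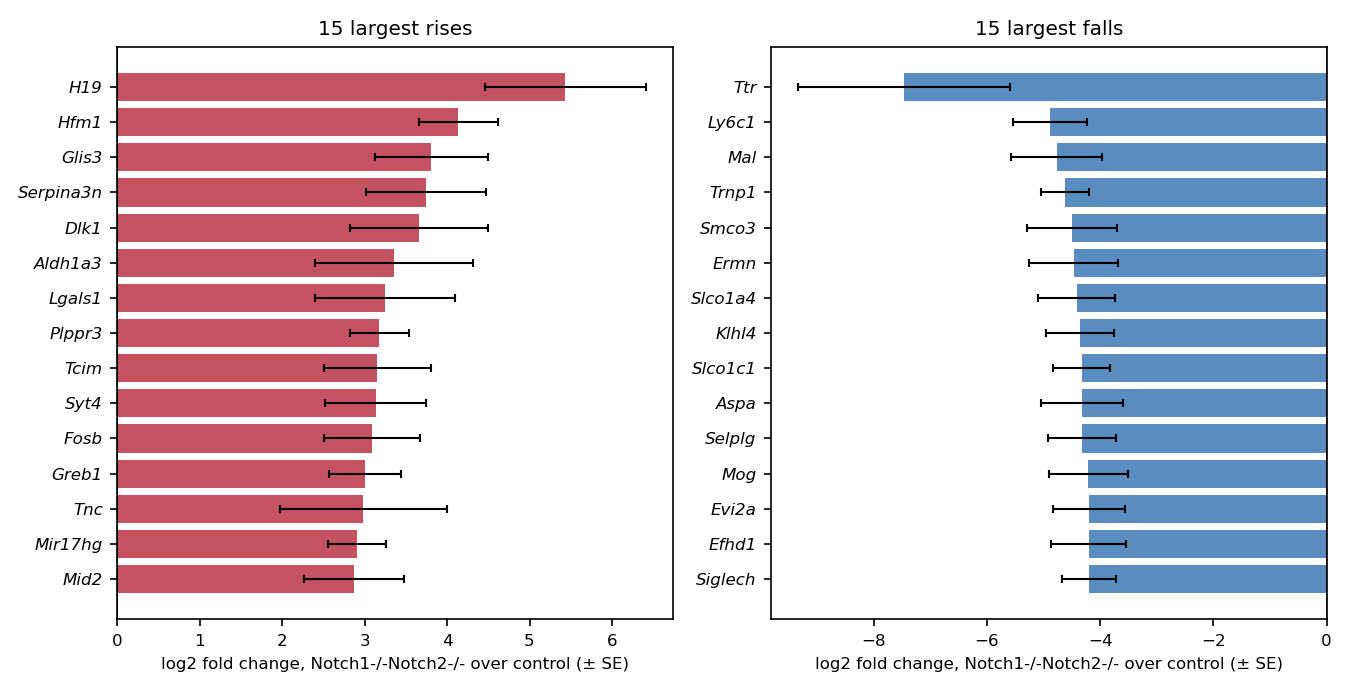
Log2 fold change of double loss over control, with its standard error, for the 15 largest rises (left) and 15 largest falls (right) among genes of mean log2 CPM of at least 1 whose groups did not overlap, predicted genes left out. The rises run from H19 at 5.44 down to Mid2 at 2.87, and the falls from Ttr at -7.47 to Siglech at -4.20.

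Most of the largest falls were of genes known from mature oligodendrocytes, endothelium, microglia or choroid plexus. Of the 15, Mal, Ermn, Aspa and Mog are genes of myelinating oligodendrocytes, Ly6c1, Slco1a4 and Slco1c1 of brain endothelium, and Selplg and Siglech of microglia. Ttr, made in large amounts by the choroid plexus, had the largest fold change, at 0.0227, 0.0265, 0.0467, 1.72 and 0.0769 CPM in double-loss libraries, against 6.32, 21.4 and 289.6 CPM as the lowest, median and highest control. Trnp1, a nuclear protein known from radial glia of the developing cortex (chr4:133491097-133499645), was among the falls that kept their call with the microglia covariate. It held 2.73, 1.46, 2.01, 0.437 and 1.18 CPM in double-loss libraries, against 31.3, 37.4 and 49.5 CPM as the lowest, median and highest control (log2 fold change -4.63 ± 0.42, edgeR adjusted p = 3.58e-07). The control range was narrow, and no double-loss library came near it. Klhl4, of the Kelch family, fell to 0.620 ± 0.570 CPM in double-loss tumours, against 12.8 ± 2.99 CPM in controls (log2 fold change -4.36 ± 0.60, edgeR adjusted p = 2.41e-05), and kept its call likewise.

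The smallest adjusted p among the genes named here was that of S1pr1, a receptor for the lipid sphingosine 1-phosphate that glia and endothelium share (chr3:115710433-115715055). S1pr1 held 6.55, 4.77, 7.74, 4.51 and 6.33 CPM in double-loss libraries, against 35.5, 52.9 and 91.4 CPM as the lowest, median and highest control (log2 fold change -3.24 ± 0.28, edgeR adjusted p = 2.16e-07). The adhesion molecule Vcam1, known for anchoring neural stem cells in their niche, held 19.7, 14.4, 30.5, 20.8 and 25.1 CPM in double-loss libraries, against 63.0, 117 and 144 CPM as the lowest, median and highest control (log2 fold change -2.36 ± 0.26, edgeR adjusted p = 3.97e-06). Neither gene overlapped between the groups. Lmo2, a transcription cofactor, fell to 2.00 ± 0.520 CPM in double-loss tumours, against 11.2 ± 3.61 CPM in controls, and Angptl1, a secreted protein, fell to 2.13 ± 1.45 CPM in double-loss tumours, against 29.6 ± 7.03 CPM in controls (log2 fold changes -2.48 ± 0.27 and -3.79 ± 0.43, edgeR adjusted p = 3.97e-06 for both). S1pr1, Vcam1, Lmo2 and Angptl1 kept their call with the microglia covariate.

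Genes of the cell division cycle rose together. Of 53 genes of G1 and S phase 33 rose (62.3%, against 18.3% of all genes) and 0 fell. Without double-loss library 4, 20 rose (37.7%), and without double-loss library 3, 1 fell. The median log2 fold change of the 53 genes was 0.69 against 0.006 over all genes. Of 60 genes of G2 and M phase 44 rose (73.3%), with 31 to 46 rising when a library was left out, and 1 fell. That was Pttg1, which encodes securin; its call was lost in 7 of the 11 fits, without double-loss library 1, 3 or 5 or control library 1, 2, 3 or 6. E2f7, an E2F factor of the S phase programme, held 26.0, 55.6, 22.9, 70.3 and 30.1 CPM in double-loss libraries, against 5.46, 9.39 and 15.1 CPM as the lowest, median and highest control (log2 fold change 2.01 ± 0.36, edgeR adjusted p = 2.59e-04). Clspn, which encodes the replication checkpoint protein claspin, rose to 88.5 ± 37.2 CPM in double-loss tumours, against 29.4 ± 9.36 CPM in controls (edgeR adjusted p = 6.96e-04). Of the mitotic genes, Ncapd2, a condensin subunit, held 269, 276, 247, 336 and 203 CPM in double-loss libraries, against 66.4, 102 and 151 CPM as the lowest, median and highest control (log2 fold change 1.33 ± 0.25, edgeR adjusted p = 3.56e-04). Espl1, which encodes separase, rose to 69.4 ± 10.7 CPM in double-loss tumours, against 26.9 ± 10.3 CPM in controls (edgeR adjusted p = 0.00101). With the microglia score as covariate 0 genes of either list passed.

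Myc, the growth factor-responsive transcription factor, rose with them. It held 92.3, 121, 77.1, 149 and 88.7 CPM in double-loss libraries, against 22.7, 31.3 and 43.8 CPM as the lowest, median and highest control (log2 fold change 1.77 ± 0.22, edgeR adjusted p = 8.65e-06). Its lowest double-loss value was above the highest control. Amino acid transport and the 1-carbon pathway were split. Of 28 genes 11 rose (39.3%, against 18.3% of all genes) and 7 fell (25.0%, against 18.8%). The glutamine carrier Slc1a5 held 34.8, 38.9, 24.8, 52.8 and 27.5 CPM in double-loss libraries, against 5.10, 8.61 and 9.72 CPM as the lowest, median and highest control (log2 fold change 2.12 ± 0.28, edgeR adjusted p = 1.41e-05). Shmt2, which feeds serine into the 1-carbon pathway of mitochondria, rose to 127 ± 29.0 CPM in double-loss tumours, against 47.4 ± 5.11 CPM in controls (edgeR adjusted p = 6.58e-04). The members that fell included Glul, Slc1a2 and Slc1a3, by which astrocytes take up glutamate and turn it into glutamine. Of 23 polycomb and DNA methylation genes 13 rose (56.5%) and 0 fell, with 11 to 13 rising when a library was left out. Ezh2, which methylates histone H3 in polycomb repression, held 104, 153, 94.1, 183 and 129 CPM in double-loss libraries, against 48.6, 68.6 and 77.2 CPM as the lowest, median and highest control (log2 fold change 0.99 ± 0.17, edgeR adjusted p = 2.01e-04). Dnmt1 and Uhrf1, which copy DNA methylation after replication, stood in this list and in that of S phase.

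Early neuronal genes rose at a share not far above that of all genes. Of 28 proneural and early neuronal genes tested 8 rose (28.6%, against 18.3% of all genes). When a library was left out 6 to 9 rose, at the lowest 21.4%, and 0 rose with the microglia covariate. Only Stmn2 fell, joined by 1 more gene without double-loss library 3 or 5. Sox11, a factor of newborn neurons, held 188, 199, 152, 257 and 237 CPM in double-loss libraries, against 34.8, 75.2 and 119 CPM as the lowest, median and highest control. Elavl2, a neuronal RNA-binding protein, rose to 39.6 ± 7.50 CPM in double-loss tumours, against 21.1 ± 4.86 CPM in controls (log2 fold change 0.91 ± 0.20, edgeR adjusted p = 0.00137). Igfbpl1, a secreted protein of early neurons, rose to 8.83 ± 2.16 CPM in double-loss tumours, against 2.35 ± 1.18 CPM in controls (log2 fold change 1.91 ± 0.49, edgeR adjusted p = 0.00434). Dcx, a microtubule protein of migrating neurons, did not pass the test. Among 52 axon guidance genes 9 rose and 9 fell, 17.3% each way against 18.3% and 18.8% of all genes. The repellent Slit1 rose to 13.6 ± 5.13 CPM in double-loss tumours, against 3.33 ± 0.979 CPM in controls, while Robo1, one of its receptors, fell to 30.5 ± 12.9 CPM in double-loss tumours, against 80.3 ± 19.2 CPM in controls (log2 fold changes 2.03 ± 0.31 and -1.39 ± 0.29, edgeR adjusted p = 5.83e-05 and 8.11e-04).

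Few precursor genes passed the test. Of 24 oligodendrocyte precursor genes 1 rose and 2 fell (4.17% and 8.33%, against 18.3% and 18.8% of all genes), or 6 fell without double-loss library 3. The summed level of these 24 genes was 12485 to 23361 CPM in double-loss libraries and 17898 to 22962 CPM in controls. Sox6, which holds precursors immature, held 554, 713, 591, 718 and 660.1 CPM in double-loss libraries, against 266, 368 and 514 CPM as the lowest, median and highest control (log2 fold change 0.82 ± 0.19, edgeR adjusted p = 0.00201). Olig1, known to promote their maturation, held 1108, 775, 1193, 615 and 769.6 CPM in double-loss libraries, against 1241, 1382 and 1447 CPM as the lowest, median and highest control (log2 fold change -0.61 ± 0.18, edgeR adjusted p = 0.0109).

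Astrocyte genes fell. Of 38 members 24 fell (63.2%, against 18.8% of all genes), with 22 to 24 falling when a library was left out. Only 1 rose, or 2 without control library 5. The median log2 fold change was -1.22. The gene that rose was Slc14a1, a urea transporter. Mlc1, a membrane protein of astrocyte endfeet, held 0.955, 1.30, 2.19, 0.983 and 0.436 CPM in double-loss libraries, against 6.99, 12.5 and 20.0 CPM as the lowest, median and highest control (log2 fold change -3.45 ± 0.43, edgeR adjusted p = 8.96e-06). The zinc transporter Slc39a12 fell to 0.298 ± 0.230 CPM in double-loss tumours, against 8.50 ± 3.71 CPM in controls, and the bicarbonate carrier Slc4a4 to 5.70 ± 2.53 CPM in double-loss tumours, against 28.7 ± 12.6 CPM in controls (edgeR adjusted p = 1.07e-05 and 2.91e-05). Mlc1, Slc39a12 and Slc4a4 were among the 5 members that fell with the microglia covariate. Of 12 gap junction genes 8 fell (66.7%) and 0 rose. Gja1, the main connexin of astrocytes, held 2.00, 1.35, 2.80, 1.09 and 9.43 CPM in double-loss libraries, against 16.7, 40.6 and 62.5 CPM as the lowest, median and highest control. Library 5 stood out among the double-loss libraries for Gja1 and still lay below every control. Fabp7, the fatty acid-binding protein of radial glia, fell to 492 ± 138 CPM in double-loss tumours, against 1113 ± 194 CPM in controls, and Id4, a BMP-responsive inhibitor of differentiation, to 0.498 ± 0.232 CPM in double-loss tumours, against 3.05 ± 1.13 CPM in controls (log2 fold changes -1.18 ± 0.25 and -2.61 ± 0.34, edgeR adjusted p = 0.00104 and 1.55e-05). Both kept their call with the covariate.

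Ion channel and transmitter receptor genes fell more often than they rose. Of 57 potassium channel genes 21 fell (36.8%, against 18.8% of all genes) and 3 rose (5.26%, against 18.3%). When a library was left out, 15 to 21 fell. Kcnk13, a background potassium channel, held 4.73, 3.76, 9.03, 3.50 and 4.23 CPM in double-loss libraries, against 10.8, 14.7 and 18.6 CPM as the lowest, median and highest control (log2 fold change -1.55 ± 0.30, edgeR adjusted p = 4.82e-04). Kcnk5, of the same family, rose to 4.63 ± 1.36 CPM in double-loss tumours, against 1.57 ± 0.740 CPM in controls (edgeR adjusted p = 7.55e-04). Of 21 GABA and glycine receptor genes 10 fell (47.6%) and 1 rose (4.76%). Of 37 glutamate receptor genes and partners 10 fell (27%, against 18.8% of all genes), or 4 without double-loss library 2 or 4 (10.8%), and 2 rose, or 1 without double-loss library 2 or 4 or any control library but 4. Grm3, a metabotropic receptor of glia, held 0.910, 0.397, 2.66, 0.519 and 0.538 CPM in double-loss libraries, against 7.86, 16.0 and 26.3 CPM as the lowest, median and highest control (log2 fold change -4.05 ± 0.58, edgeR adjusted p = 3.77e-05). Gria1, an AMPA receptor subunit, fell to 2.63 ± 1.90 CPM in double-loss tumours, against 18.8 ± 4.89 CPM in controls (log2 fold change -2.83 ± 0.47, edgeR adjusted p = 1.27e-04). Grm3, Gria1 and Kcnk13 kept their call with the covariate.

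Immediate early genes, which cells switch on quickly after a stimulus, were split by member. Of 31 tested 9 rose (29.0%, against 18.3% of all genes), with 7 to 10 rising when a library was left out, and 4 fell, or 2 without double-loss library 1 or 5 or control library 2. Jun held 307, 234, 208, 241 and 211 CPM in double-loss libraries, against 78.7, 91.9 and 101 CPM as the lowest, median and highest control (log2 fold change 1.40 ± 0.17, edgeR adjusted p = 6.27e-06). Fosb held 71.8, 28.2, 41.2, 29.6 and 27.4 CPM in double-loss libraries, against 1.72, 3.22 and 11.1 CPM as the lowest, median and highest control. Arc, an immediate early gene of synapses, moved the other way, at 1.21, 1.88, 3.62, 2.65 and 1.03 CPM in double-loss libraries, against 6.06, 9.13 and 13.4 CPM as the lowest, median and highest control (log2 fold change -2.21 ± 0.36, edgeR adjusted p = 1.19e-04). None of these 3 genes overlapped between the groups. Dusp6, which shuts off ERK signalling, fell to 80.7 ± 25.0 CPM in double-loss tumours, against 165 ± 33.8 CPM in controls (log2 fold change -1.03 ± 0.27, edgeR adjusted p = 0.00466).

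Of 33 PDGF ligands and receptor tyrosine kinases 9 fell (27.3%, against 18.8% of all genes) and 2 rose (6.06%, against 18.3%). The collagen receptor Ddr2 held 138, 114, 154, 226 and 130.4 CPM in double-loss libraries, against 13.5, 36.8 and 70.9 CPM as the lowest, median and highest control (log2 fold change 2.00 ± 0.41, edgeR adjusted p = 8.04e-04). Fgfr2 fell to 12.8 ± 3.63 CPM in double-loss tumours, against 68.5 ± 16.4 CPM in controls (edgeR adjusted p = 0.00149). Col9a1, a fibril-associated collagen, held 20.6, 44.1, 23.3, 42.8 and 37.4 CPM in double-loss libraries, against 4.70, 7.08 and 9.19 CPM as the lowest, median and highest control (log2 fold change 2.26 ± 0.45, edgeR adjusted p = 5.73e-04), and kept its call with the covariate. Of 18 S100 and annexin genes 8 fell (44.4%), with 8 falling in each fit that left out a library. Among them was S100a16, at 84.0 ± 52.4 CPM in double-loss tumours and 511 ± 176 CPM in controls (log2 fold change -2.60 ± 0.44, edgeR adjusted p = 1.54e-04). Of 22 cholesterol synthesis genes 10 fell (45.5%) and 0 rose, with 7 to 11 falling when a library was left out. Msmo1, a sterol oxidase, held 194, 146, 206, 132 and 179 CPM in double-loss libraries, against 269, 364 and 423 CPM as the lowest, median and highest control.

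**Figure D3:**
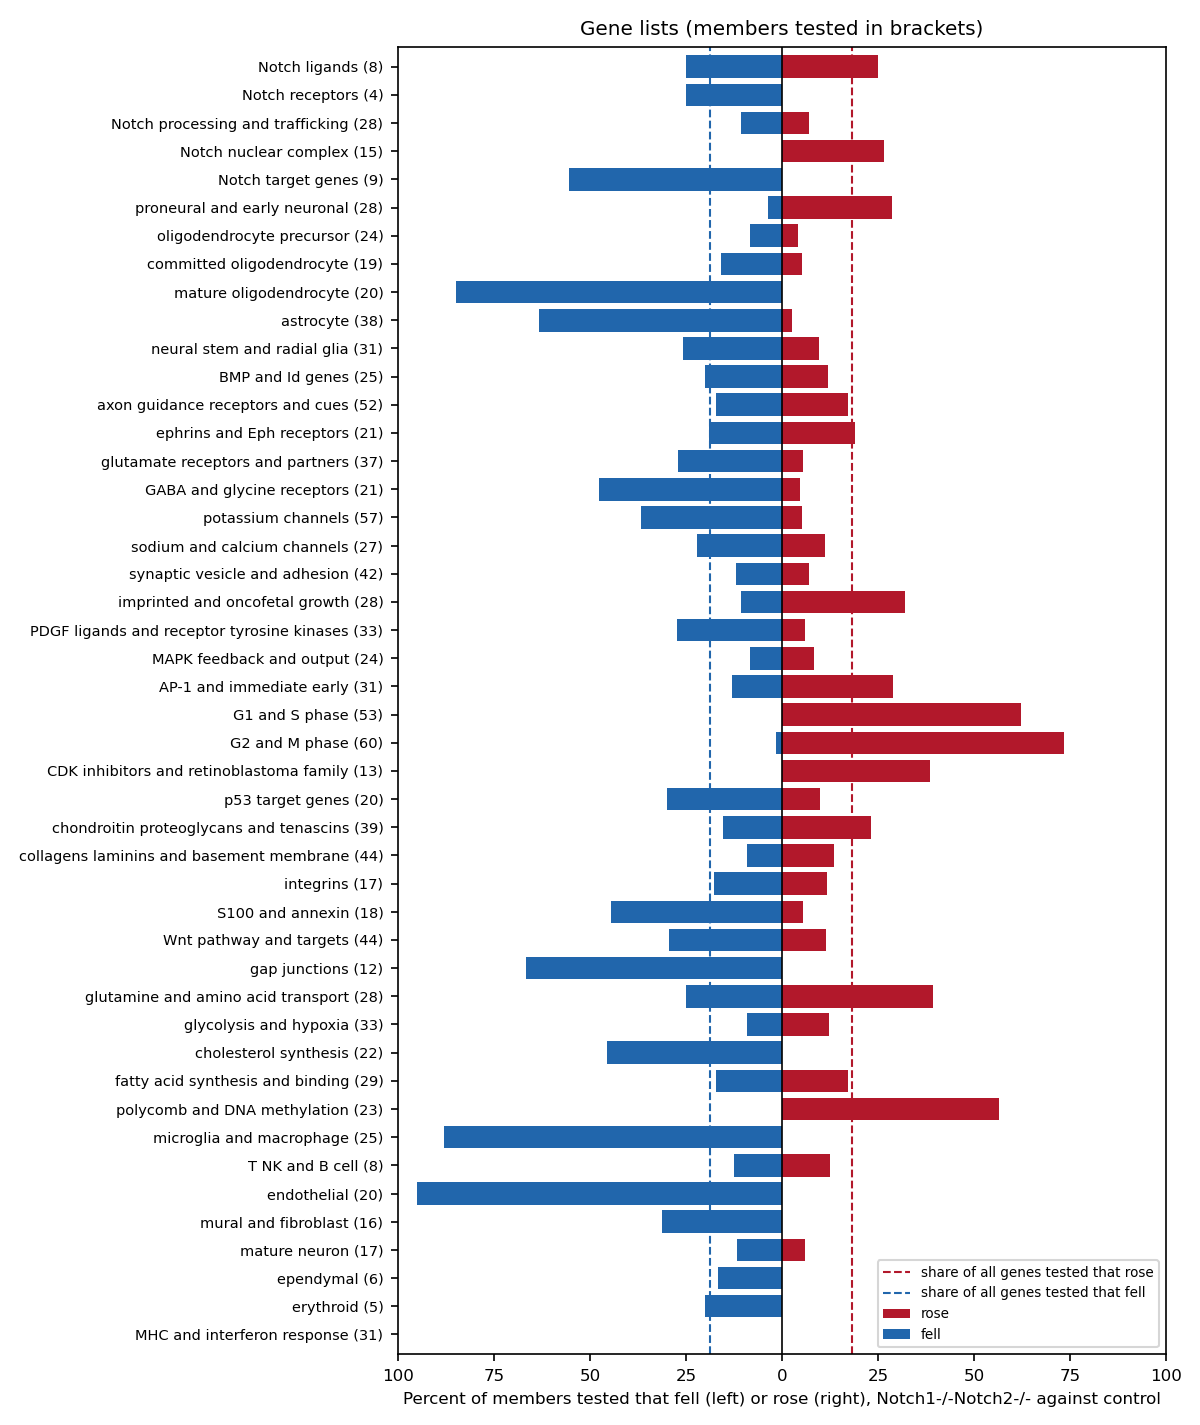
Percent of tested members of 46 gene lists that fell (to the left) or rose (to the right) in double-loss against control tumours, with the number tested in brackets; dashed lines mark the share of all genes tested, 18.8% lower and 18.3% higher. G1 and S phase, G2 and M phase and polycomb genes lie to the right, and endothelial, microglia, mature oligodendrocyte, gap junction and astrocyte genes to the left.

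Most markers of microglia, endothelium and mature oligodendrocytes were lower in the double-loss libraries. Whether the myelin transcripts came from tumour cells or from other cells was not tested. Of 25 microglia and macrophage genes 22 fell (88%, against 18.8% of all genes) and 0 rose. Their summed level was 94.8 to 228 CPM in double-loss libraries and 478 to 1788 CPM in controls, with no member at 0 in every library of either group. P2ry12, a purine receptor that defines microglia, held 4.78, 3.79, 1.80, 2.38 and 2.64 CPM in double-loss libraries, against 20.7, 38.8 and 78.1 CPM as the lowest, median and highest control. Of 20 endothelial genes 19 fell (95%), and their sum was 43.4 to 80.4 CPM in double-loss libraries and 115 to 501 CPM in controls. Of 20 genes of mature oligodendrocytes 17 fell (85%), and their sum was 2633 to 7017 CPM in double-loss libraries and 11401 to 29831 CPM in controls. The 24 astrocyte falls, and those of the gap junction, channel and cholesterol lists, therefore stand beside lower sums of these markers. The part of these markers in the result was not tested beyond the microglia covariate, which cannot separate it from the genotype. Of 16 mural and fibroblast genes 5 fell (31.2%, against 18.8% of all genes) and 0 rose, with a median log2 fold change of -1.745. When a library was left out 5 to 7 fell. The sums of these 16 genes overlapped, at 343 to 907 CPM in double-loss libraries and 691 to 1563 CPM in controls.

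**Figure D4:**
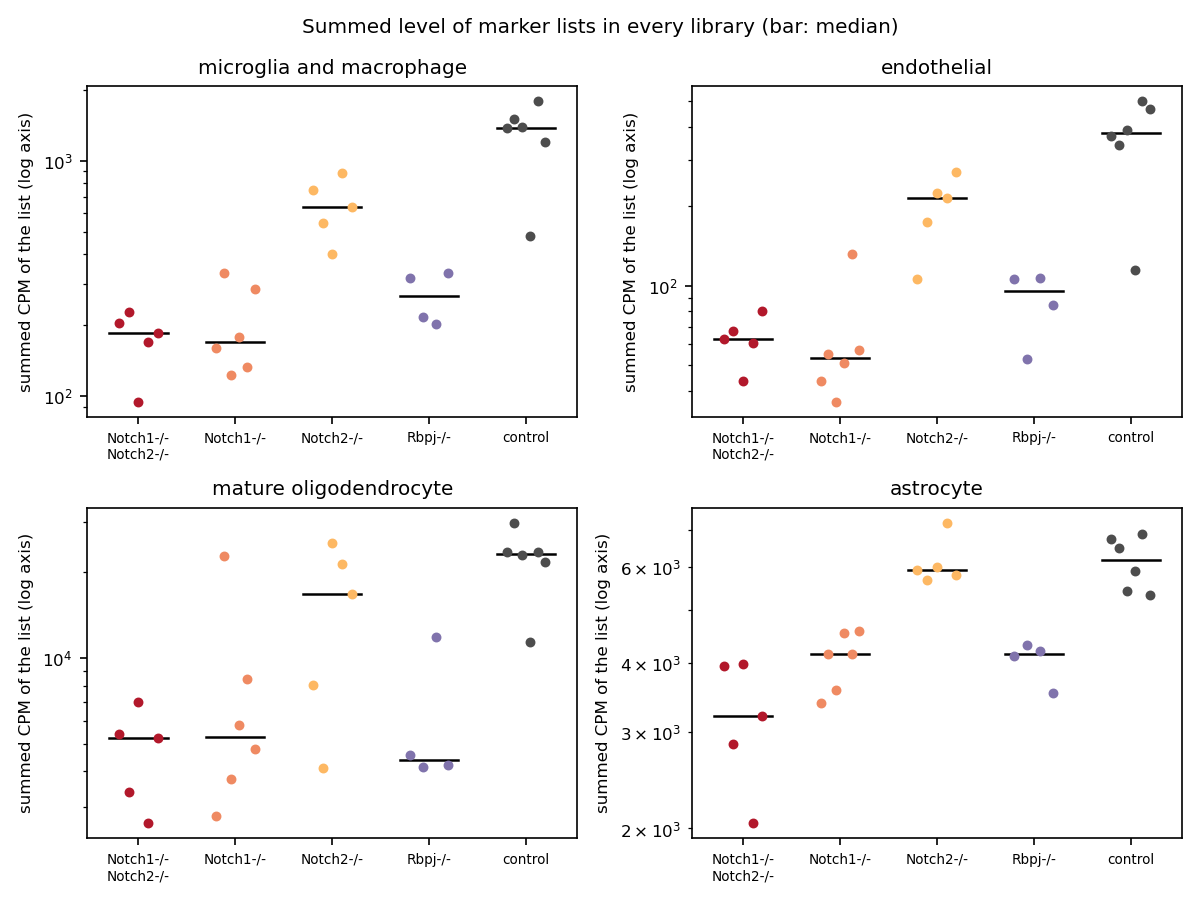
Summed CPM (log axis) of the microglia and macrophage, endothelial, mature oligodendrocyte and astrocyte lists in each of 26 libraries, 1 point per library, with the median as a bar. Double-loss points lie below all control points in each panel, and Notch1-/- and Rbpj-/- points are mostly low as well.

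Set directly against the other mutants, the double-loss group differed in far fewer genes from 2 of them. In edgeR's test 124 genes differed from Rbpj-/- tumours (0.794%), 100 from Notch1-/- tumours (0.640%) and 2714 from Notch2-/- tumours (17.4%). These counts moved with single libraries. The count against Rbpj-/- ran from 21 to 156 when a library was left out and was 21 to 81 without double-loss library 1, 2, 4 or 5 or Rbpj-/- library 1, 2 or 4. The count against Notch1-/- ran from 18 to 199 and was highest without double-loss library 3, while leaving out any other library but Notch1-/- library 2 gave 18 to 57. The count against Notch2-/- was 1705 without double-loss library 2, 1478 without library 4 and 978 without the 3 libraries that held both Xist and Ddx3y, 2 of them Notch2-/-. The microglia sums of Rbpj-/- libraries ran from 203 to 332 CPM and those of Notch1-/- libraries from 123 to 332 CPM, nearer to the double-loss values than the controls were. Counts over the whole Rbpj gene were lower in Rbpj-/- tumours but not absent. They were 37.8 ± 13.5 CPM, against 61.2 ± 6.43 CPM in controls (log2 fold change -0.70 ± 0.20, edgeR adjusted p = 0.0222). Against control, Hes5 was lower in Rbpj-/- tumours (edgeR adjusted p = 0.0148). Hes1, Nrarp, Tmem100 and Hey1 did not pass there (edgeR adjusted p = 0.213, 0.427, 0.0617 and 0.522). Of the 9 Notch target genes tested, 3 were lower in double-loss than in Rbpj-/- tumours. Nrarp held 24.3, 19.0, 12.9 and 14.0 CPM in the 4 Rbpj-/- libraries, all above the highest double-loss library at 7.55 CPM (log2 fold change -1.65 ± 0.35, edgeR adjusted p = 0.0241). Tmem100 held 88.1, 159, 195 and 106 CPM in Rbpj-/- libraries, also above every double-loss library (log2 fold change -1.43 ± 0.32, edgeR adjusted p = 0.0304). Hey1 averaged 14.7 ± 3.17 CPM in double-loss tumours and 28.3 ± 4.47 CPM in Rbpj-/- tumours (log2 fold change -0.95 ± 0.21, edgeR adjusted p = 0.0354). The other 6 did not pass, among them Hes1 (log2 fold change -1.66 ± 0.43, edgeR adjusted p = 0.0730) and Hes5 (log2 fold change -1.06 ± 0.43, edgeR adjusted p = 0.314). Against Notch1-/- tumours Hes5, Hes1, Nrarp and Hey1 did not pass (edgeR adjusted p = 0.808, 0.196, 0.816 and 0.781). Hes5 averaged 0.514 ± 0.149 CPM in Notch1-/- tumours and 0.628 ± 0.327 CPM in double-loss tumours. Tmem100 was lower in double-loss than in Notch1-/- tumours (edgeR adjusted p = 0.047), a call lost in 9 of 11 fits that left out a library. The calls of Nrarp, Tmem100 and Hey1 against Rbpj-/- tumours depended on single libraries. That of Nrarp was lost without double-loss library 2, 4 or 5 or Rbpj-/- library 1 or 2, that of Tmem100 without double-loss library 2, 4 or 5 or Rbpj-/- library 2 or 3, and that of Hey1 without any library except double-loss library 3 and Rbpj-/- library 4, with adjusted p up to 0.0916, 0.0916 and 0.134.

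A few genes set the double loss apart from every other genotype. Mtus1, a microtubule-associated protein, held 8.64, 12.8, 18.4, 8.69 and 13.8 CPM in double-loss libraries, against means of 52.3 ± 16.1 CPM in Notch1-/-, 49.0 ± 10.7 CPM in Notch2-/-, 47.9 ± 3.57 CPM in Rbpj-/- and 44.4 ± 15.9 CPM in control tumours. It passed all 4 tests, with log2 fold changes of -2.07 ± 0.27, -1.98 ± 0.28, -1.94 ± 0.29 and -1.83 ± 0.27 in that order (edgeR adjusted p = 3.73e-04, 7.91e-05, 0.00137 and 4.39e-05). One control, at 17.8 CPM, reached into the double-loss range. Rabl2, a small GTPase of cilia, held 22.7, 18.8, 25.1, 14.7 and 19.2 CPM in double-loss libraries, against means of 36.4 ± 2.56 CPM in Notch1-/-, 38.0 ± 3.42 CPM in Notch2-/-, 34.5 ± 4.63 CPM in Rbpj-/- and 38.2 ± 5.03 CPM in control tumours, and passed all 4 tests. No library of another genotype was as low. Unc5d, a netrin receptor, stood at 0.811 ± 0.264 CPM in double-loss tumours, against 24.7 ± 10.4 CPM in Rbpj-/-, 10.6 ± 6.49 CPM in Notch1-/-, 12.2 ± 11.6 CPM in Notch2-/- and 3.01 ± 1.65 CPM in control tumours. Its difference from Rbpj-/- was a log2 fold change of -4.92 ± 0.62 (edgeR adjusted p = 1.92e-04), so for this gene the double loss lay below controls and the Rbpj loss above them. The calls of Mtus1, Rabl2 and Unc5d against Rbpj-/- and Notch1-/- kept without each library left out.

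Tnfrsf10b, which encodes a death receptor that p53 can induce, was high in double-loss tumours alone among the genotypes. It held 2.00, 8.58, 1.38, 7.18 and 4.46 CPM in double-loss libraries, against means of 0.521 ± 0.254 CPM in Notch1-/-, 0.449 ± 0.269 CPM in Notch2-/-, 0.755 ± 0.188 CPM in Rbpj-/- and 0.564 ± 0.260 CPM in control tumours. The lowest double-loss library exceeded every library of the other genotypes. The call against Notch1-/- (log2 fold change 3.18 ± 0.49, edgeR adjusted p = 0.00165) remained without each library, while that against Rbpj-/- (log2 fold change 2.64 ± 0.55, edgeR adjusted p = 0.0236) was lost without double-loss library 2 or 4 or any Rbpj-/- library. Snhg16, a noncoding RNA, was above Rbpj-/- tumours as well, at 21.9 ± 1.67 CPM in double-loss tumours and 12.9 ± 1.16 CPM in Rbpj-/- tumours (log2 fold change 0.76 ± 0.14, edgeR adjusted p = 0.0126). Chrm3, a muscarinic receptor, stood at 0.223 ± 0.134 CPM in double-loss tumours and 9.84 ± 8.47 CPM in Notch1-/- tumours (log2 fold change -5.43 ± 0.81, edgeR adjusted p = 0.00145). The call of Chrm3 against Notch2-/- tumours was lost in 4 of 10 fits that left out a library, and no call was made against Rbpj-/- tumours. Its low double-loss level limits the precision of these fold changes. Ccdc178, a coiled-coil gene, held 0.0455, 0.0265, 0, 0.0273 and 0 CPM in double-loss libraries, against means of 0.123 ± 0.301 CPM in Notch1-/-, 1.65 ± 0.358 CPM in Notch2-/-, 2.23 ± 1.03 CPM in Rbpj-/- and 4.22 ± 0.502 CPM in control tumours. The double-loss values rest on 0 to 2 counts a library.

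The comparison with Notch2-/- tumours shares the double-loss libraries with that against controls, so the values here are given side by side only. Trnp1 held 1.56 ± 0.863 CPM in double-loss tumours and 25.4 ± 7.13 CPM in Notch2-/- tumours (log2 fold change -4.02 ± 0.42, edgeR adjusted p = 4.56e-06). It was low in Notch1-/- and Rbpj-/- tumours too, at 3.43 ± 1.74 and 2.59 ± 1.28 CPM. The double loss did not pass against either for this gene (edgeR adjusted p = 0.202 and 0.473). S1pr1 held 5.98 ± 1.34 CPM in double-loss tumours and 50.6 ± 10.3 CPM in Notch2-/- tumours (log2 fold change -3.08 ± 0.29, edgeR adjusted p = 7.59e-07). Hes5 held 0.628 ± 0.327 CPM in double-loss tumours and 6.44 ± 2.45 CPM in Notch2-/- tumours, and Dll3 86.2 ± 12.8 CPM in double-loss tumours and 34.5 ± 8.78 CPM in Notch2-/- tumours (edgeR adjusted p = 3.16e-05 and 2.92e-05). S1pr1 was also below Notch1-/- tumours, which held 13.5 ± 4.37 CPM (log2 fold change -1.17 ± 0.26, edgeR adjusted p = 0.0407), but only the fits without double-loss library 3 or Notch1-/- library 2 or 6 kept that call.

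**Figure D5:**
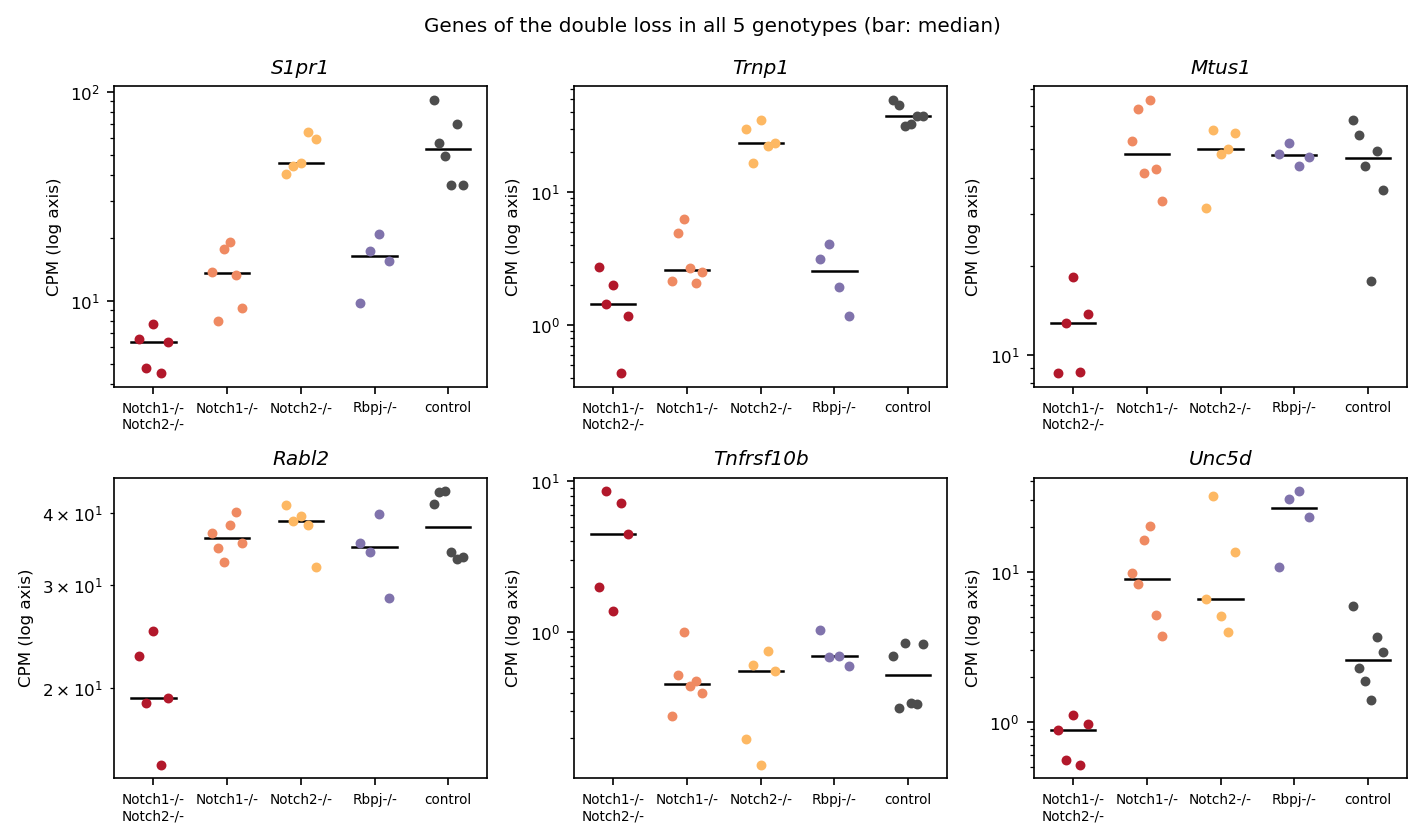
CPM (log axis) of S1pr1, Trnp1, Mtus1, Rabl2, Tnfrsf10b and Unc5d in each of 26 libraries by genotype, 1 point per library, with the median as a bar. The double-loss points of Rabl2 and Unc5d lie below, and those of Tnfrsf10b above, every point of the other genotypes.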

How the data were processed

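RNA of sorted glioma cells was sequenced with a stranded kit per the labels' protocols, and the submitters' processing notes name STAR and the mm10 genome. The authors deposited raw counts per gene for 24454 Entrez identifiers in 26 libraries. How reads were counted, and whether by strand, is not given in the sources used, so overlapping and antisense genes may share reads. Symbols were found for 24374 identifiers, and the 80 without a match held 0.348% of counts. Total counts per library are given with the groups, and their size limits the precision of low genes.

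Libraries were grouped by genotype label. Genes were kept with filterByExpr, scaled with TMM and tested with edgeR 4.0.16 (R 4.3.3) by the quasi-likelihood F-test over all 26 libraries, with genotype as the only term and Benjamini-Hochberg adjustment over 15617 genes. CPM were taken on library totals after TMM; a prior count of 2 entered their log2. The code was tested on simulated counts. The closest replicates differed by more than sampling noise, and each library was counted as 1 sample. That difference cannot show whether the libraries came from different mice. Alternatives were DESeq2 1.42.0, limma 3.58.1 with voom quality weights, DESeq2 size factors, other filters, the compared libraries alone, a replicate block, a covariate (Xist or the microglia score), and the omission of each library in turn; leaving out the 3 libraries with both Xist and Ddx3y was chosen after seeing the data.

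Named genes were Notch1, Notch2, Rbpj and Trp53, the 15 largest rises and 15 largest falls among genes whose log2 CPM averaged 1 or more and whose groups did not overlap, predicted genes left out, up to 6 members of each of 46 lists by smallest adjusted p, and all tested Notch ligands, receptors and targets. S1pr1, Lmo2, Angptl1, Mtus1, Rabl2, Unc5d, Snhg16, Chrm3 and Ccdc178 were added for their small adjusted p, and Vcam1, Mir675, Xist, Ddx3y, Olig2, Pdgfra, Sox10, Slc4a4, Dcx, Uhrf1, Cd44, Stmn2, Pttg1, Slc14a1, Slc1a2 and Slc1a3 were named after their values were seen. The groups, lists and members were chosen with earlier results of these data known. Promoter and microRNA sequences are RefSeq's, on GRCm38.p6.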

Additional observations from a re-analysis of the deposited data

Results flagged for a closer look

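Among 200 sets of values, 100 named genes in each of the double-loss and control groups, 12 held a library far from the others of its group by Dixon's criterion on log2 CPM; chance gives about 1 in 20 such sets. In the double-loss group library 4 was low for Hes1, at 1.39 CPM against 2.87 to 3.26 CPM in the other double-loss libraries, and high for Ttr, at 1.72 CPM against 0.0227 to 0.0769 CPM. Double-loss library 3 was high for Angptl1, at 4.71 CPM against 1.36 to 1.68 CPM, and for Aspa, at 8.68 CPM against 1.31 to 1.97 CPM.

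The other 8 were all in control library 4. It was high for Serpina3n, at 88.98 CPM against 22.0 to 35.8 CPM in the other controls. It was low for the myelin genes Mog, at 201.9 CPM against 468 to 705 CPM, and Aspa, at 26.3 CPM against 61.1 to 83.3 CPM. It was low for the endothelial gene Ly6c1, at 3.79 CPM against 14.7 to 27.4 CPM, and for the microglial gene Siglech, at 5.35 CPM against 12.2 to 19.7 CPM. Tmem100, at 171.4 CPM against 249 to 298 CPM, Fgfr2, at 37.0 CPM against 68.4 to 82.4 CPM, and Lmo2, at 4.87 CPM against 10.3 to 15.5 CPM, were low in it as well.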

How the results depend on the processing

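Of 100 genes named in the text and followed here, 91 were called against control. Of these, 87 kept their call without each library in turn, all but Tnc, Dner, Dll4 and Numbl. With the microglia score as a covariate 33 kept it. Pttg1, not among the 91, lost its call as well. Further genes chosen by the naming rule but not described above lost theirs too, such as Notch4 in 10 fits and Alas2 in 11 fits. That covariate also turned the sign of Dll4 to 0.40 (edgeR adjusted p = 0.798) and of Jag1 to -0.74 (edgeR adjusted p = 0.414), on the log2 scale. It gave 261 genes changed against control and 1156 against Notch2-/-. Against control, the other settings gave 4138 to 7364 genes changed, and leaving out a library gave 4639 to 6256. The cause of the differences between settings was not tested.

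Against Notch2-/-, the filter of 10 CPM in 4 libraries gave 1778 genes, voom 4448 and the fit without the 3 libraries with both Xist and Ddx3y 978, and leaving out a library gave 1478 to 2897. Against Rbpj-/-, DESeq2 gave 317 genes, the filter 73, no filter 81, the compared libraries alone 31, the fit without those 3 libraries 76, and leaving out a library 21 to 156. Against Notch1-/-, DESeq2 gave 278, Xist as a covariate 28, the filter 40, no filter 61, voom 359, the compared libraries alone 21, the fit without those 3 libraries 41, and leaving out a library 18 to 199.

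With the replicate number as a block 5245 genes changed against control, 2359 against Notch2-/-, 50 against Rbpj-/- and 28 against Notch1-/-. Same-numbered double-loss and control libraries had correlations of their deviations from -0.148 to 0.349, and 1 of 5 double-loss libraries correlated best with its own number. These values cannot show whether libraries of the same number were processed together. Depth limits Ccdc178, with 0 to 2 counts in each double-loss library.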
